A study of Mus musculus with 6 samples.

Results

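The 6 libraries of this mouse molar series fell into a pair of classes that their labels do not name, 3 enamel-rich and 3 enamel-poor. The classes were chosen by the measured level of Amelx, the gene for amelogenin, with a threshold of 5000 reads per 1000000 reads (RPM) and without regard to genotype. The enamel-rich libraries were control 3, mutant 1 and mutant 3, which is 3 of 6 libraries. The enamel-poor libraries were control 1, control 2 and mutant 2. The library just above the threshold was mutant 3 at 10097 RPM and the library just below it was mutant 2 at 2526 RPM. Because Amelx chose the classes, differences in expression between them are given here as a description, with the standard error (SE) for the main genes and without a p-value. Enamel-poor libraries are listed in the order control 1, control 2, mutant 2, and enamel-rich libraries in the order control 3, mutant 1, mutant 3.

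RNA came from the apical part of the lower first molar of mice at postnatal day 7.5, cut away by blade as dental mesenchyme. Mutants carried Gli1-CreER with Bmpr1afl/fl, a loxP-flanked gene for a type I BMP receptor, and controls were littermates labelled Bmpr1afl/fl with no driver named. The Gli1-CreER driver makes a tamoxifen-dependent recombinase in Gli1-expressing cells, so other cells of the tooth keep the receptor, and neither a tamoxifen schedule nor the treatment of controls is given in the labels. All mice shared a mixed C57Bl6/129S6/SvEvTac background, and the labels tie controls 1 and 2 and mutants 1 and 2 to litter 1 and control 3 and mutant 3 to litter 2. Nothing in the labels says how many teeth or animals made up a library, so the spread between libraries may be partly technical.

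Enamel is made by ameloblasts, the inner epithelial layer of the tooth germ, whereas dentin is made by odontoblasts of the neighbouring mesenchyme. Ameloblasts first secrete a matrix of amelogenin, ameloblastin and enamelin, and later remove it with proteases while they move calcium and phosphate into the hardening enamel. A crown is finished before its root is formed, and at the apical end the epithelium narrows into the cervical loop and the root sheath, which lie against the mesenchyme that was dissected here.

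The depth differed between the classes. The enamel-poor libraries held 20568542, 19557694 and 20609420 reads on genes and the enamel-rich libraries held 19119135, 18924833 and 15916045, so every enamel-rich library was shallower. The smallest p-value that 3 libraries against 3 allow is 0.1, and the exact two-sided permutation test of depth gave p = 0.1. A level of 3 reads, the smallest treated here as detectable, was 0.0987 to 0.126 RPM. Bmpr1a itself was measured at 121, 139 and 120.2 RPM in the enamel-poor and 149.5, 108 and 111 RPM in the enamel-rich libraries, which overlap. Its genotype difference was -0.27 (SE 0.14, adjusted p = 1) by limma, a linear model fitted across all genes with Benjamini-Hochberg adjustment. Y-linked transcripts were present in control 1 and mutant 1 and at 0 in the other 4 libraries, so each class held 1 library with them. Of the mutants 2 of 3 were enamel-rich and of the controls 1 of 3. In litter 2 both libraries were enamel-rich and in litter 1 it was 1 of 4. With 3 libraries a class, neither split could pass a test at 0.05, so none is given.

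The secreted enamel matrix genes separated the classes by a wide margin. Amelx was measured at 2220.4, 876 and 2526 RPM in the enamel-poor libraries and 19794, 23480.0 and 10097 RPM in the enamel-rich libraries. Ambn, which encodes ameloblastin, was measured at 1014, 969 and 1552 RPM in the enamel-poor libraries and 13238, 18402 and 5728 RPM in the enamel-rich libraries. Enam, which encodes the large matrix protein enamelin, was measured at 189.6, 133 and 223 RPM in the enamel-poor libraries and 3107, 4002 and 1092 RPM in the enamel-rich libraries. Mutant 1 had the highest value of all 3 genes and mutant 3 the lowest among the enamel-rich libraries, yet mutant 3 stayed above every enamel-poor library. On the log2(RPM + 1) scale the enamel-rich minus enamel-poor difference was 3.30 (SE 0.66) for Amelx, 3.28 (SE 0.56) for Ambn and 3.74 (SE 0.48) for Enam. Of these values only that of Amelx set the classes, but over the 6 libraries the 3 genes went together, with a Pearson correlation of 0.97 between Amelx and Ambn and of 0.997 between Ambn and Enam.

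Amtn and Odam, which encode amelotin and odontogenic ameloblast-associated protein of the lamina under maturing ameloblasts, were further apart in proportion. Amtn was measured at 6.06, 14.9 and 2.86 RPM in the enamel-poor libraries and 184, 535 and 56.3 RPM in the enamel-rich libraries. Odam was measured at 13.1, 15.7 and 5.26 RPM in the enamel-poor libraries and 223, 662 and 68.0 RPM in the enamel-rich libraries. Their differences were 4.56 (SE 0.83) and 4.26 (SE 0.78), which are 23.6-fold and 19.1-fold on that scale. Mutant 1 again stood highest, and mutant 2 was the lowest of the 6 libraries for both. Relative to Amelx in the same library, Amtn made up 0.273%, 1.70% and 0.113% in the enamel-poor and 0.931%, 2.28% and 0.558% in the enamel-rich libraries, so the share of this later gene overlapped between the classes. All 7 listed enamel genes together took 0.526%, 0.313% and 0.650% of the reads on genes in the enamel-poor libraries and 5.44%, 7.06% and 2.56% in the enamel-rich libraries.

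The matrix proteases overlapped between the classes and varied widely among the enamel-rich libraries. Mmp20, the protease of the secretory stage, was measured at 102, 115 and 131 RPM in the enamel-poor libraries and 109, 287 and 37.0 RPM in the enamel-rich libraries. Klk4, the protease of the maturation stage, was measured at 17.5, 18.7 and 12.8 RPM in the enamel-poor libraries and 98.4, 71.9 and 4.02 RPM in the enamel-rich libraries. For both, the classes overlapped, and mutant 3 had the lowest value of all 6 libraries although its Amelx was above that of every enamel-poor library. The Mmp20 difference was -0.13 (SE 0.64) and the Klk4 difference 0.95 (SE 1.03). Both differences moved with each of several libraries. The Mmp20 difference was 0.61 without mutant 3 and -0.85 without mutant 1, and the Klk4 difference was 2.31 without mutant 3, with no overlap, 0.38 without mutant 1 and 0.16 without control 3. Within litter 1, as mutant 1 against the enamel-poor libraries, they were 1.31 and 2.09. Relative to Amelx, Mmp20 came to 4.59%, 13.2% and 5.20% in the enamel-poor and 0.549%, 1.22% and 0.367% in the enamel-rich libraries, a separation that the choice of libraries by Amelx in part fixes. Over the 6 libraries Mmp20 had a Pearson correlation of 0.86 with Dspp, the main odontoblast matrix gene, and of 0.13 with Amelx. Mmp20 and Dspp were both highest in mutant 1 and lowest in mutant 3, and the cells that held these transcripts were not tested.

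**Figure D1:**
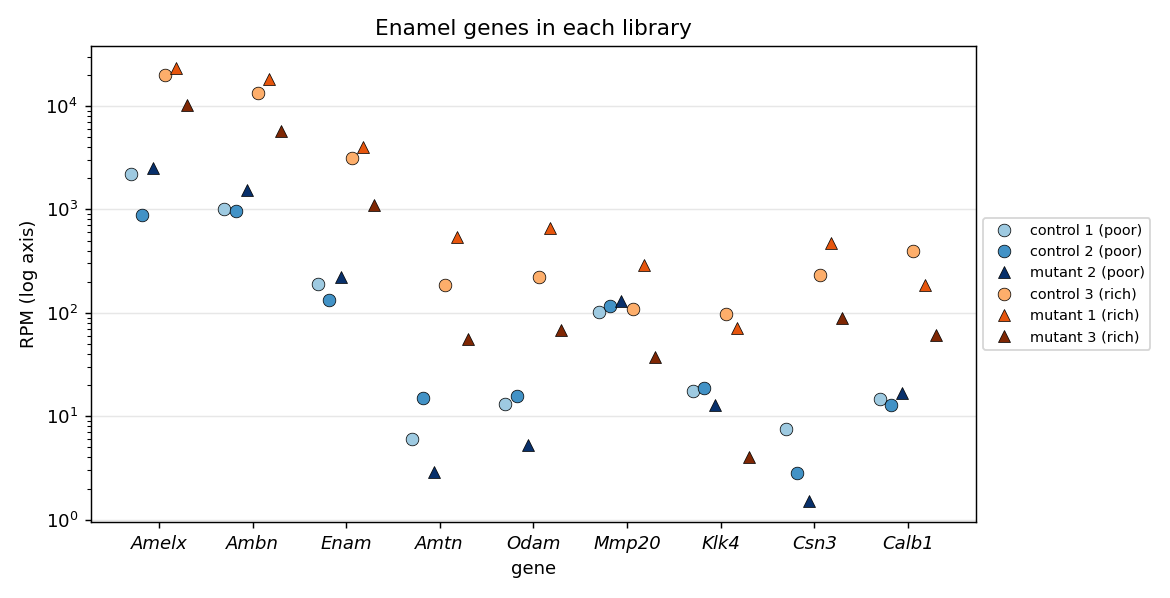
Level of the 7 listed enamel genes and of Csn3 and Calb1 in each library, in RPM on a log axis. Each symbol is 1 library, circles are controls, triangles are mutants, blue shades are enamel-poor and orange shades enamel-rich. Amelx lies at 876 to 2526 RPM in the enamel-poor and 10097 to 23480 RPM in the enamel-rich libraries, and only Mmp20 and Klk4 overlap.

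To compare levels between genes, values were divided by the summed exon length of each gene. Per kilobase, Amelx was the most abundant enamel gene in every library, at 877 to 2529 RPM per kilobase in the enamel-poor and 10108 to 23504 in the enamel-rich libraries. Ambn came second at 505 to 809 and 2985 to 9589.5 RPM per kilobase. Enam, with a much longer transcript, was at 24.2 to 40.7 and 199 to 729. Mmp20 reached 31.0 to 40.0 and 11.3 to 87.4 RPM per kilobase, so it exceeded Amtn and Odam in every enamel-poor library, and Enam in control 2, and lay below all 3 in every enamel-rich library.

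The promoters of the 5 matrix genes that separated the classes are shown beside those of the 2 proteases that did not, because the former share a short run of letters. Each line gives the 100 bases before the annotated start, 5′ to 3′ on the gene's strand, from RefSeq, build GRCm38.p6, and the capitals mark TGATTGG, which holds the CCAAT box read on the other strand.
Amelx, chrX:169187210-169187309, minus strand: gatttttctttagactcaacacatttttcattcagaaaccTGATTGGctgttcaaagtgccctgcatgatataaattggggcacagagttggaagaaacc
Ambn, chr5:88455891-88455990, plus strand: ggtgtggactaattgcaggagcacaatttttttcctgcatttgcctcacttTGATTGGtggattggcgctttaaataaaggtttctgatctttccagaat
Enam, chr5:88487875-88487974, plus strand: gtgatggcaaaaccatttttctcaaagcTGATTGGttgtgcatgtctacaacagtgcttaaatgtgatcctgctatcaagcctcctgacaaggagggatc
Amtn, chr5:88376008-88376107, plus strand: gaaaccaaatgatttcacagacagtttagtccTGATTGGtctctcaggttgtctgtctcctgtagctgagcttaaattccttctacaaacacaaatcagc
Odam, chr5:87884910-87885009, plus strand: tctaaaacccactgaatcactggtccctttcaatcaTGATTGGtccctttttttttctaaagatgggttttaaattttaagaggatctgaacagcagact
Mmp20, chr9:7628131-7628230, plus strand: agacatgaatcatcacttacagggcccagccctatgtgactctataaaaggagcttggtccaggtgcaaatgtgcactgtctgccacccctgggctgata
Klk4, chr7:43881060-43881159, plus strand: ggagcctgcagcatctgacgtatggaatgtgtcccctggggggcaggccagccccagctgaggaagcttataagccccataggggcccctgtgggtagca
In Amelx, Ambn, Enam, Amtn and Odam the run began 60, 49, 72, 68 and 64 bases before the start, in the same orientation in all 5. Neither Mmp20 nor Klk4 held it on either strand within 250 bases. Among 32851 RefSeq mouse promoters, 2.33% held TGATTGG in this orientation within 100 bases of the start, and 7.23% held it on either strand within 250 bases. Among 182 promoters of 151 genes at least 2-fold higher in the enamel-rich libraries, 7.14% held it on either strand within 250 bases, below the 9.20% over all genes tested. Within 100 bases in this orientation it was 9 of the 182 (4.95%) against 3.44%, and these 9 include the 5 enamel genes from which the letters were picked. The letters were picked after these sequences had been read, and a match is a description of the letters only.

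The genes that separated the classes most included neighbours. Odam, Csn3, Amtn, Ambn and Enam lie within 621 kilobases of chromosome 5 (chr5:87885010-88506049, mm10), a stretch with 11 protein-coding RefSeq genes, of which 10 were in the table. The stretch was drawn from Odam to Enam, the first and last listed enamel genes there, and all 5 but Csn3 are listed enamel genes. These 5 genes were the only ones of the 10 with any reads. All 5 were at least 2-fold higher in the enamel-rich libraries, as were 1.71% of all genes tested. That count is largely fixed by how the stretch was drawn and is no sign of clustering. Of all at least 2-fold higher genes found in RefSeq, 8.22% lie on chromosome 5, against 6.25% of all genes tested. The other 5 (Cabs1, Smr3a, Smr2, Gm7714 and Prol1) were listed without a read in all 6 libraries. Amelx lies apart at chrX:169176114-169187200 on the minus strand, inside the span of Arhgap6 on the opposite strand. Arhgap6, chosen after its values were seen and with no exon overlapping those of Amelx, was measured at 4.51, 1.82 and 1.96 RPM against 4.24, 1.99 and 2.98 RPM in the enamel-poor and enamel-rich libraries and overlapped between them. Mmp20 lies at chr9:7628231-7674979 and Klk4 at chr7:43881160-43885804.

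Across the transcriptome, 14444 genes had a mean of at least 1 RPM. Of these, 735 genes (5.09%) were higher in every enamel-rich than in every enamel-poor library, and 3443 (23.8%) were lower in every one. With a difference of at least 2-fold as well, 247 genes (1.71%) were higher and 216 (1.5%) were lower. The median difference over all genes was -0.11 on the log2 scale, so values below are read against that shift. When libraries were scaled by the median of gene ratios in place of the library total, this median became 0.01. Under that scaling 1710 genes were higher and 1572 lower without overlap, and 311 higher and 96 lower by at least 2-fold, so the share of higher genes among the latter went from 53.3% to 76.4%. All 247 higher genes were among the 311, whereas 96 of the 216 lower genes were still counted.

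**Figure D2:**
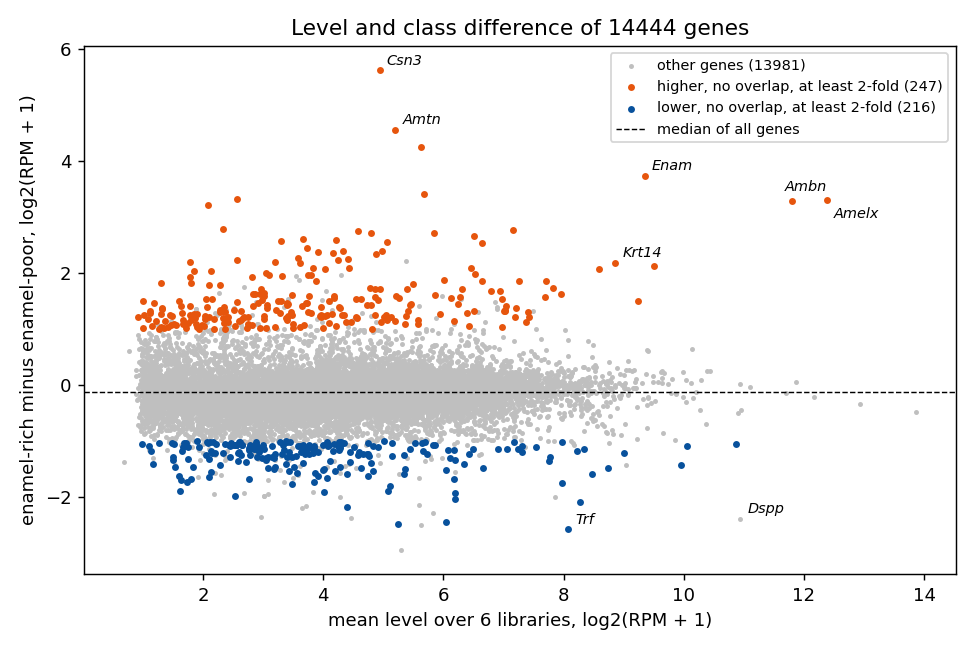
Mean level of each of the 14444 genes over the 6 libraries against its enamel-rich minus enamel-poor difference, both on the log2(RPM + 1) scale. Orange points are the 247 genes at least 2-fold higher without overlap, blue points the 216 genes at least 2-fold lower without overlap, grey points all others, and the dashed line is the median of -0.11. Amelx, Ambn and Enam combine high levels with large differences, while Dspp, at -2.38, is grey because its classes overlap.

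The largest difference of any gene was not in an enamel protein. Csn3, which encodes kappa-casein, a milk protein of the same family of secreted calcium-binding phosphoproteins, was measured at 7.57, 2.83 and 1.53 RPM in the enamel-poor libraries and 231, 471 and 90.0 RPM in the enamel-rich libraries. Its difference of 5.62 (SE 0.65) is 49.3-fold on that scale. In order of size it was followed by Amtn, Odam, Enam, Calb1, Krt75, Amelx, Ambn, Slc24a4 and Cldn20, the 10 largest differences upward. Calb1, which encodes the calcium-binding protein calbindin, was measured at 14.8, 12.9 and 16.6 RPM in the enamel-poor libraries and 397, 186 and 61.6 RPM in the enamel-rich libraries, with a difference of 3.41 (SE 0.59) and its highest value in control 3 rather than mutant 1. Cldn20, a claudin gene, was measured at 1.02, 0.490 and 1.36 RPM against 11.2, 26.9 and 5.78 RPM, with a difference of 2.78 (SE 0.48).

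Among ameloblast regulators and genes of enamel ion handling, 11 of 21 tested genes were higher without overlap and 1 was lower, against 5.09% and 23.8% of all genes, with a median difference of 0.54 against -0.11 over all genes. Of the 22 listed genes that the table holds, S100g stayed under the level for testing, at 0 to 0.391 RPM. The 4 largest differences were those of Calb1, Slc24a4, Acpt and Itgb6. Slc24a4, which encodes a sodium, potassium and calcium exchanger of maturing ameloblasts, was measured at 0.329, 0.839 and 0.0998 RPM in the enamel-poor libraries and 24.8, 30.6 and 1.59 RPM in the enamel-rich libraries. Its difference of 3.21 (SE 0.89) rested mainly on control 3 and mutant 1, with mutant 3 close to the enamel-poor libraries. Acpt, the older symbol of the acid phosphatase gene Acp4, was measured at 7.77, 7.45 and 9.48 RPM against 87.4, 98.2 and 26.4 RPM, with a difference of 2.76 (SE 0.46). Itgb6, an epithelial integrin subunit, was measured at 1.58, 0.769 and 1.23 RPM against 13, 8.99 and 4.11 RPM, with a difference of 2.04 (SE 0.37). The lowest differences in the list were those of the magnesium transporter gene Cnnm4 at -0.90 (SE 0.31), with overlap, and of the transcription factor gene Foxo1 at -0.44 (SE 0.18), which overlapped under the median-of-ratios scaling. Dlx3, a homeobox gene shared by ameloblasts and odontoblasts, overlapped at 152, 255 and 182 RPM against 209.9, 141 and 137 RPM.

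Most general markers of dental epithelium were also higher in the enamel-rich libraries. Of 22 tested genes, 14 were higher without overlap, against 5.09% of all genes, all 14 by at least 2-fold, none was lower without overlap, and the median difference was 1.73. Krt14, a keratin of basal epithelium, was measured at 436, 81.5 and 289 RPM in the enamel-poor libraries and 990.1, 856 and 1154 RPM in the enamel-rich libraries. Krt5, its partner keratin, was measured at 832, 95.4 and 529.9 RPM in the enamel-poor libraries and 1345, 1267 and 2076 RPM in the enamel-rich libraries. For both keratins control 2 was far below the other enamel-poor libraries, and mutant 3 was the highest of all 6. The differences were 2.19 (SE 0.56) and 2.13 (SE 0.74), and without control 2 they were 1.48 and 1.20. Of the 14 higher genes, Grhl2, Pkp1 and Esrp1 were less than 2-fold apart without control 2, at 0.73, 0.93 and 0.98. Krt75, a keratin also found in enamel, was measured at 1.81, 0.0350 and 1.23 RPM against 20.5, 13.9 and 19.2 RPM, with a difference of 3.32 (SE 0.37). Its value in control 2 lay under the level of 3 reads treated as detectable. Cldn1, a tight-junction gene, was measured at 79.3, 8.67 and 60.8 RPM against 118, 450.2 and 222 RPM, with a difference of 2.65 (SE 0.83) that was 1.70 without control 2. Krt18, Sp5 and Krt8 lay near the median of all genes, at -0.25, -0.09 and -0.03, and overlapped.

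The balance between matrix and epithelial transcripts differed within the enamel-rich class. Amelx reads per Krt14 read came to 5.10, 10.8 and 8.75 in the enamel-poor libraries and to 20.0, 27.4 and 8.75 in the enamel-rich libraries. Because Amelx set the classes, a higher ratio in enamel-rich libraries is in part fixed by that choice. Control 3 and mutant 1 had more Amelx per Krt14 than any enamel-poor library, whereas mutant 3 lay inside the enamel-poor range. Mutant 3 was therefore enamel-rich by the threshold, with the most Krt14 and Krt5 of all libraries and the least Mmp20 and Klk4. In bulk RNA, fewer cells of a type and less RNA per cell cannot be told apart.

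Genes that attach epithelium to its basement membrane were higher in the enamel-rich libraries in 6 of 7 cases (5.09% of all genes), all 6 by at least 2-fold, with a median difference of 1.72. Lama3 and Lamb3, which encode laminin chains of the epithelial basement membrane, were higher in all 3 enamel-rich libraries. Lamb3 was measured at 47.4, 30.0 and 45.4 RPM against 279.7, 309 and 158 RPM and Lama3 at 32.1, 11.5 and 26.4 RPM against 148, 222 and 94.9 RPM, with differences of 2.55 (SE 0.29) and 2.71 (SE 0.42). The hemidesmosome genes Col17a1, Itgb4 and Itga6 differed by 1.63 (SE 0.37), 1.72 (SE 0.35) and 1.04 (SE 0.30). Itga6 stood at the 2-fold limit and was under it without control 2 at 0.68, without control 3 or mutant 3 at 0.99, and within litter 1 at 0.84. Dst, which is also expressed in other tissues, was measured at 183, 175 and 165 RPM against 152, 255 and 140.2 RPM and overlapped.

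The 8 genes whose log2 values followed Amelx most closely over the 6 libraries were Plek2, Cdkl2, Ucp2, Lama3, Afap1l2, Lamb3, Cd44 and Itpr3, with Pearson correlations of 0.991 to 0.995. A correlation over 6 libraries that fall into separate classes is a description of that split. Lama3 and Lamb3 were the only members of the gene lists among them. Itpr3, an intracellular calcium channel gene, was measured at 56.5, 27.3 and 46.3 RPM in the enamel-poor libraries and 179, 254 and 128 RPM in the enamel-rich libraries. Cd44, which encodes a hyaluronan receptor, was measured at 87.9, 66.9 and 90.3 RPM against 236, 214 and 173 RPM. Plek2, a pleckstrin gene and the closest of the 8, was measured at 5.99, 3.08 and 5.22 RPM against 15.7, 17.2 and 12.3 RPM, with a difference of 1.5 (SE 0.23).

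Genes lower in the enamel-rich libraries had another distribution over the 3 libraries than genes that were higher. Of the 247 higher genes, 210 were at least 2-fold above the enamel-poor mean in control 3, 205 in mutant 1 and 191 in mutant 3, with medians of 1.49, 1.43 and 1.36 on the log2 scale. Of the 216 lower genes, 212 were at least 2-fold below that mean in control 3 and 147 in mutant 3, but only 16 in mutant 1, with medians of -1.71, -1.21 and -0.66. At least 2-fold in each enamel-rich library were 136 genes upward (0.942% of those tested) and 9 downward (0.0623%). Control 3 and mutant 3 make up litter 2, so for most of the lower genes the class and the litter cannot be told apart. Litter 2 holds enamel-rich libraries only, so within-litter values exist for litter 1 alone, as mutant 1 against the 3 enamel-poor libraries without a replicate. There 349 of the 14444 genes were higher and 91 lower by at least 2-fold without overlap. They included 205 of the 247 higher but 16 of the 216 lower genes. These are the mutant 1 counts given above and no second line of evidence. Amelx, Ambn and Enam differed by 3.79, 4.0 and 4.48 within litter 1, more than over both litters. Without mutant 1, the number of lower genes went from 216 to 569, without control 3 to 100 and without control 1 to 428, whereas the number of higher genes stayed between 172 and 359 when any 1 library was left out.

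**Figure D3:**
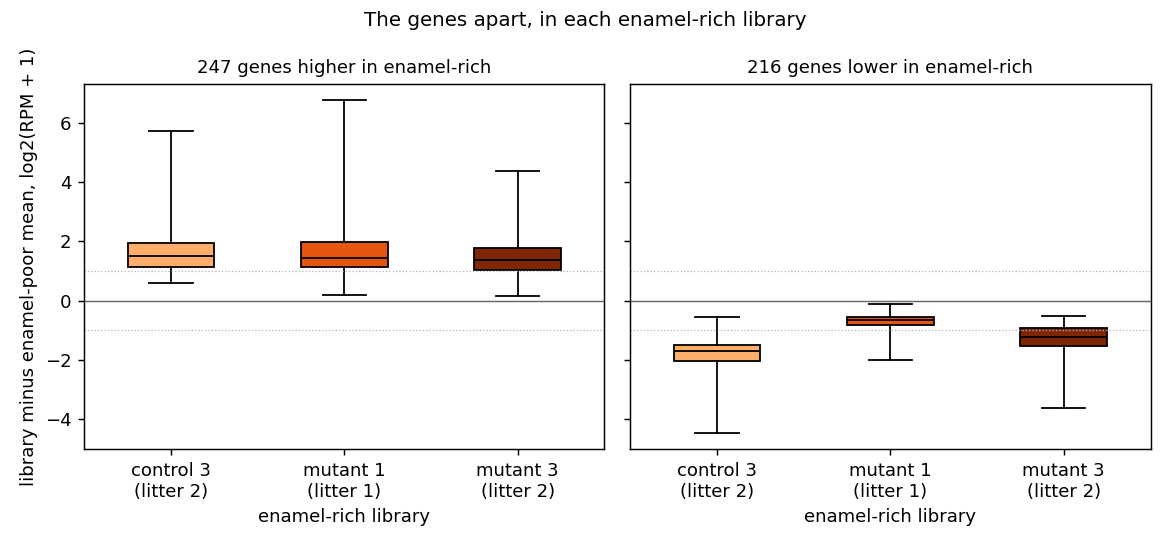
Difference of each enamel-rich library from the mean of the 3 enamel-poor libraries, on the log2(RPM + 1) scale, for the 247 higher genes (left) and the 216 lower genes (right). Boxes span the quartiles with the median as a line, whiskers reach the lowest and highest gene, and dotted lines mark 2-fold. The higher genes have medians of 1.49, 1.43 and 1.36, while the lower genes have -1.71 in control 3, -0.66 in mutant 1 and -1.21 in mutant 3.

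Among genes without overlap, the 12 largest differences downward were those of Trf, Pamr1, Tnfaip2, Cntfr, Gm20425, Dmkn, Erbb4, Enpp6, Cd163, Stc2, Gsta3 and St6gal2. Trf, which encodes the iron carrier transferrin, was measured at 484, 727 and 796 RPM in the enamel-poor libraries and 29.0, 416 and 107 RPM in the enamel-rich libraries. Its difference was -2.57 (SE 0.84), or -1.63 without control 3 and -3.53 without mutant 1, and mutant 1 lay just below the enamel-poor range while control 3 and mutant 3 were far below it. The litter comparison shares these libraries. By it 8 of the 12 were lower in litter 2, against 2.96% of all genes. Their adjusted p ran from 0.00572 for Dmkn to 0.0239 for Trf (limma). Cntfr, Stc2, St6gal2 and Cd163 did not pass (adjusted p 0.0518 to 0.0829, limma). The 12 were picked for falls in a class that holds both litter 2 libraries, so these p-values largely restate that choice. Each of the 8 also failed to pass in some other setting. Gm20425 overlaps the exons of Trf on the same strand, so its values may hold Trf reads and are uncertain. Pamr1 was measured at 60.3, 115 and 99.0 RPM against 5.40, 48.7 and 12 RPM, with a difference of -2.48 (SE 0.68). Cntfr, a receptor gene for ciliary neurotrophic factor, was measured at 32.3, 46.0 and 55.8 RPM against 2.75, 21.4 and 10.8 RPM, with a difference of -2.16 (SE 0.59). Enpp6, a choline-specific phosphodiesterase gene, was measured at 98.0, 177 and 159.8 RPM against 21.6, 93.3 and 23.8 RPM, with a difference of -1.92 (SE 0.54). Mutant 1 was the nearest of the enamel-rich libraries to the enamel-poor range in all of these. Trf, Gm20425, Dmkn, Erbb4, Enpp6 and St6gal2 overlapped under the median-of-ratios scaling.

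Odontoblast genes differed among the enamel-rich libraries, and not all in the same way. Dspp, which encodes the precursor of the dentin sialoprotein and phosphoprotein, was measured at 4032, 4844 and 4642 RPM in the enamel-poor libraries and 817, 6872 and 113 RPM in the enamel-rich libraries. Phex, an endopeptidase gene of mineralizing cells, was measured at 387, 498 and 507 RPM in the enamel-poor libraries and 113, 725 and 18.2 RPM in the enamel-rich libraries. In both, mutant 1 was the highest of all 6 libraries and mutant 3 the lowest, so the classes overlapped, with differences of -2.38 (SE 1.30) and -1.98 (SE 1.14). Of 10 tested odontoblast genes, 1 was lower without overlap and none was higher, against 23.8% and 5.09% of all genes, and the median difference was -0.41. The 1 gene was Vdr, the vitamin D receptor gene, at 72.3, 156 and 137 RPM against 33.5, 70.2 and 39.4 RPM, and it overlapped under each other scaling tried. Col1a1, the main collagen gene of dentin and bone, was measured at 15516, 21460.0 and 16269.9 RPM against 14403, 28920.2 and 4871 RPM. Dmp1, a mineral matrix gene, differed by 1.67 (SE 0.73), with 88.7 RPM in control 3 and at most 18.9 RPM elsewhere. Smpd3, Ank and Sp7, genes of mineralizing cells, had control 3 above mutant 1, the opposite of Dspp. Smpd3 was measured at 184, 155 and 129 RPM against 458, 64.7 and 168 RPM, Ank at 92.8, 119.5 and 85.7 RPM against 189, 75.2 and 97.2 RPM and Sp7 at 77.8, 126 and 91.3 RPM against 109, 72.5 and 62.9 RPM, all with overlap. All 9 osteoblast genes overlapped, with a median of 0.31.

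Mesenchymal genes of the papilla, the tissue named in the labels, were present in every library. Barx1, a molar mesenchyme homeobox gene, was measured at 512, 415 and 450.4 RPM in the enamel-poor libraries and 304, 279 and 514 RPM in the enamel-rich libraries. Of 15 tested papilla genes, 3 were lower without overlap and none was higher, near the shares of 23.8% and 5.09% over all genes. Their median difference was -0.09, and 0.04 under the median-of-ratios scaling. Msx1, a homeobox gene of dental mesenchyme, was measured at 218, 305 and 304 RPM in the enamel-poor libraries and 91.2, 174 and 129 RPM in the enamel-rich libraries, with a difference of -1.10 (SE 0.25). Fgf10 and Fgf3, growth factor genes through which the mesenchyme signals to the epithelium, were measured at 10.1, 6.85 and 11.7 RPM against 2.22, 5.15 and 4.69 RPM and at 2.80, 2.06 and 2.5 RPM against 1.34, 0.746 and 0.922 RPM. Gli1 had the largest difference upward in the list, at 0.39 (SE 0.35), and overlapped. In the dental follicle and ligament list, 1 of 10 genes was higher (Scx) and 1 lower (Tnc) without overlap, against 5.09% and 23.8% of all genes. Tnc, which encodes tenascin C, was measured at 1368, 1786 and 1494 RPM in the enamel-poor libraries and 541, 1019 and 691 RPM in the enamel-rich libraries, with a difference of -1.09 (SE 0.29).

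**Figure D4:**
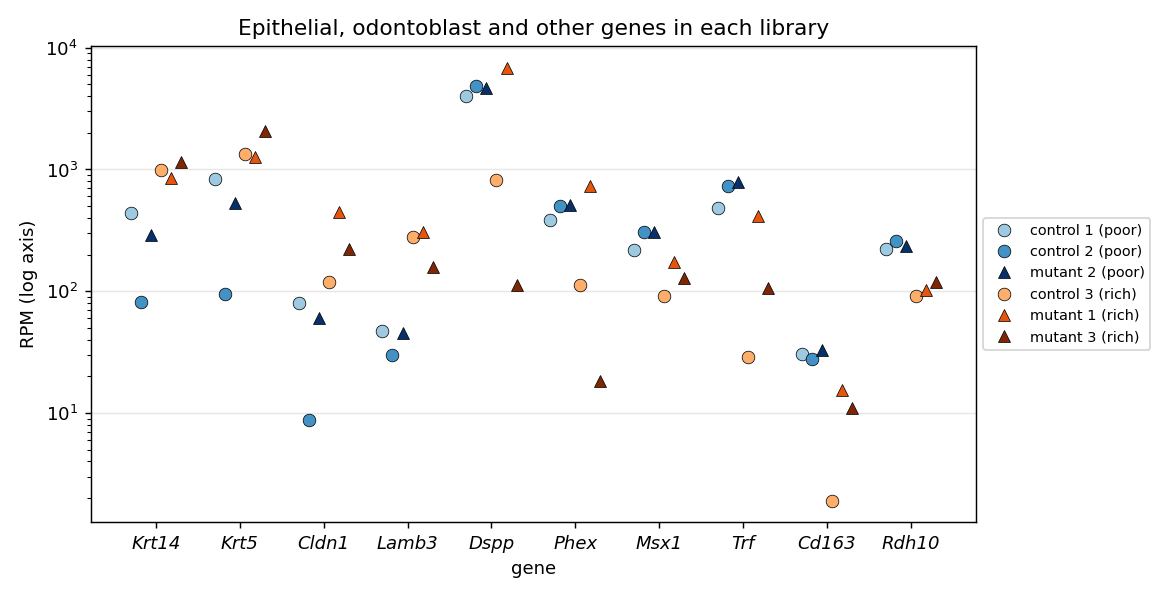
Level of 10 genes in each library, in RPM on a log axis, with symbols and colours as in the plot of enamel genes. Krt14, Krt5, Cldn1 and Lamb3 are epithelial, Dspp and Phex mark odontoblasts, Msx1 marks dental mesenchyme, and Trf, Cd163 and Rdh10 (chosen after its values were seen) were lower in the enamel-rich libraries. Dspp in mutant 1, at 6872 RPM, lies above the enamel-poor libraries, while control 3 at 817 RPM and mutant 3 at 113 RPM lie below them.

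Some markers of other cell types separated the classes and others overlapped, and their part in the differences above was not tested. Of 7 tested macrophage and osteoclast genes, 4 were lower without overlap, against 23.8% of all genes, and none was higher, with a median of -0.67. Csf1r, the receptor gene for macrophage colony-stimulating factor, was measured at 125, 158 and 186 RPM in the enamel-poor libraries and 56.9, 93.9 and 88.6 RPM in the enamel-rich libraries, and Cd14 at 9.45, 13.4 and 17.4 RPM against 4.06, 6.22 and 4.82 RPM. The osteoclast genes Acp5 and Mmp9 overlapped, with differences of 0.42 (SE 0.50) and 0.53 (SE 0.66). The summed level of the 9 genes was 341 to 456 RPM in the enamel-poor and 250.2 to 311 RPM in the enamel-rich libraries.

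Endothelial genes were lower without overlap in 3 of 8 cases (2 of 8 under the median-of-ratios scaling), where 23.8% of all genes were, with a median of -0.30 and summed levels of 402 to 469 RPM against 308 to 377 RPM. Kdr and Egfl7 were the furthest apart, at -0.57 and -0.58. Erythroid genes overlapped in all 6 tested cases, with a median of 1.35. Their summed level was 2524 RPM in control 3 and at most 774 RPM in any other library, and globin copies share reads, so their split between copies is uncertain. The 6 glial and nerve genes had a median of -0.16, near that of all genes. All 10 skeletal muscle genes were under 1 RPM in every library.

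In the list for oral mucosa and skin surface, 4 of 6 tested genes were higher without overlap (5.09% of all genes). Krt6a was measured at 24.9, 1.43 and 19.4 RPM against 31.5, 88.6 and 123 RPM and Krt16 at 12.4, 2.55 and 9.52 RPM against 32.1, 29.3 and 36.6 RPM, and both keratins are also made by activated or suprabasal epithelium elsewhere. The summed level of the 10 genes was 12.1 to 71.1 RPM in the enamel-poor and 89.8 to 193 RPM in the enamel-rich libraries. Ivl and Sprr1a, which define cornified surface epithelium, were at 0 in all 6 libraries. Lor, another cornification gene, was at most 5.28 RPM.

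**Figure D5:**
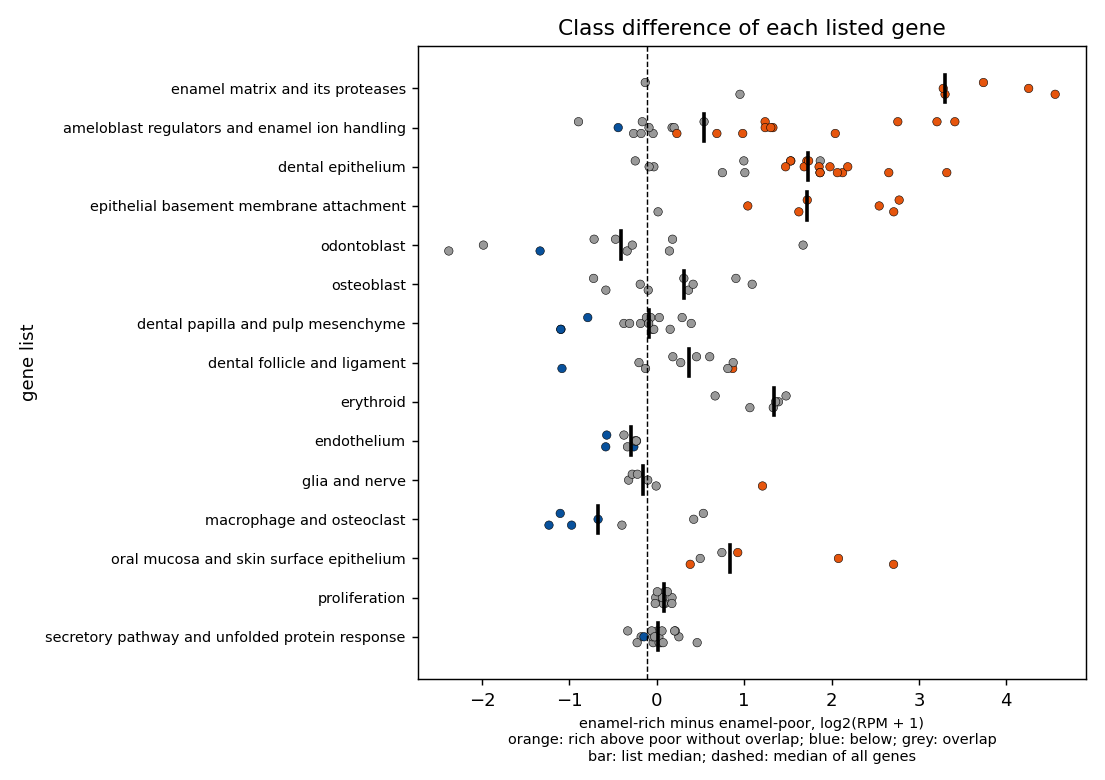
Enamel-rich minus enamel-poor difference of each tested gene, grouped by list, on the log2(RPM + 1) scale. Orange genes are higher and blue genes lower without overlap, grey genes overlap, black bars are list medians and the dashed line is the median of all genes. The enamel, epithelial and basement membrane lists lie to the right at medians of 3.30 (the value of Amelx, which set the classes), 1.73 and 1.72, and proliferation and secretory genes lie near 0.

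Most genes of cell division and of the secretory machinery overlapped between the classes. All 10 proliferation genes overlapped, with differences between -0.02 and 0.17. Mki67 was measured at 71.8, 32.2 and 50.9 RPM against 42.1, 46.5 and 73.5 RPM. Of 18 secretory pathway and unfolded protein response genes, 17 overlapped, with a median of 0.02, and 1 was lower, where 23.8% of all genes were lower and 5.09% higher. Xbp1, a regulator of secretory capacity, had the largest difference at 0.46 (SE 0.25), with 269 RPM in control 3 and 126 to 172 RPM elsewhere. Atf4, the lower gene, differed by -0.15 and overlapped under each other scaling tried. Under the median-of-ratios scaling 2 genes of the list were higher without overlap and the list median was 0.15.

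Genotype and litter come from the labels and were tested across all genes with limma. By genotype, none of the 14444 genes (0%) passed an adjusted p of 0.05, and 152 (1.05%) had an unadjusted p under 0.05. None of the 7 enamel genes was among these 152. The mutant minus control difference was 1.32 (SE 1.33, adjusted p = 1) for Amelx, 1.22 (SE 1.28, adjusted p = 1) for Ambn and 1.21 (SE 1.41, adjusted p = 1) for Enam by limma. The SE of each was about as large as the difference. With the enamel class as a term in the fit, the count stayed at 0, while 537 genes then had an unadjusted p under 0.05. No genotype difference of an enamel gene is read from that fit, because the class was set by Amelx itself.

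By litter, 31 genes (0.215%) were higher and 427 (2.96%) lower in litter 2 at an adjusted p of 0.05 in limma. None of the 7 enamel genes passed, and Amelx differed by 2.11 (SE 1.22, adjusted p = 0.33). Of the 10 odontoblast genes, 3 fell in litter 2, on the log2 scale. Dspp fell by 4.03 (adjusted p = 0.036, limma), Phex fell by 3.47 (adjusted p = 0.038, limma) and Nes fell by 1.19 (adjusted p = 0.046, limma). Over 17 other settings the adjusted p of Dspp ranged from 0.0166 to 0.138, with 9 of 17 under 0.05, that of Phex from 0.00766 to 0.139, with 9 of 17, and that of Nes from 0.0434 to 0.148, with 5 of 17. No member of the dental epithelium or basement membrane lists passed in either direction. The number of genes that passed by litter went from 458 to 7 without mutant 2, to 64 without control 3, to 98 without control 2, to 142 without control 1, to 153 without mutant 3 and to 939 without mutant 1. Without control 3 or mutant 3, litter 2 is 1 library, and the spread then comes from litter 1 alone. With the enamel class in the fit 2 genes passed, D4Wsu53e and Mapt.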

How the data were processed

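Per the labels' protocols, poly(A) RNA from the apical mesenchyme of mouse molars was sequenced for 6 samples (Illumina NextSeq 500). TopHat2 and the mm10 build are named in the submitters' processing notes, and the counting program and annotation are not given in the sources used here. The authors deposited 1 table of 25899 gene symbols with log2 values titled as normalized RPKM. Raised as powers of 2, the values under 10000 reads were whole multiples of 1 step per column in 100% of cases (within 0.02 reads), the same for long and short genes, and the values are therefore treated as RPM and not as RPKM. That denominator is inferred, not stated. The column minimum, 0.9 of 1 read, was set to 0. Intervals and floors cover counting error only, since the reads carry no molecular identifiers.

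The members and gene lists were chosen with earlier results of these data known. The 14444 genes averaging 1 RPM or more were fitted on log2(RPM + 1), which understates changes of low genes, with limma 3.58.1 in R 4.3.3 (lmFit, eBayes with trend, two-sided, Benjamini-Hochberg). The enamel class, chosen on Amelx, was described by differences, SE and overlap. Genotype and litter were tested. The fit was checked on simulated data. A result of 2-fold means a log2 difference of at least 1. The plan assumed RPKM, and the linear RPM values took their place. Because the deposited unit is log2, voom on the recovered reads was the only count-based fit, added after the data were seen.

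Named genes were Amelx, Ambn, Enam, all enamel list members, up to 4 members in each direction of the other lists, any member a statement rests on for lists under 12 genes, the 12 largest differences in each direction and the 8 genes most correlated with Amelx, except a few that are not reported here. Genes outside this rule are said to be chosen after their values were seen. Replicate numbers 1 to 3 come from the table's column names. Same-numbered libraries had correlations of -0.03, 0.75 and 0.50 between their deviations from the group means, so the numbers were not taken as pairs. Exon lengths and overlaps come from GENCODE (GRCm38, which is mm10), promoters from RefSeq GRCm38.p6, which held all 7 enamel genes. Figures were drawn with matplotlib 3.10.9.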

Additional observations from a re-analysis of the deposited data

Results flagged for a closer look

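In 7 of 227 named or listed genes the class difference had opposite directions in the genotypes. In these genes control 3 lay on one side of both other controls while both enamel-rich mutants lay on the other side of mutant 2. The same was seen in 1119 of all 14444 genes (7.75%), and the difference between the genotypes was not tested. Postn, the periostin gene of the dental follicle, differed by -1.17 in controls and 0.79 in mutants, which is 1.97 more in mutants on the log2 scale. The myelin gene Mbp differed by 0.86 more in mutants. Of the secretory pathway genes, Hspa5 differed by -0.49, Pdia3 by -0.42, Calr by -0.66, Dnajb11 by -0.47 and Sdf2l1 by -1.0, each lower in mutants than in controls by this measure.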

How the results depend on the processing

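For 104 named genes at least 2-fold apart without overlap, 90 of 1656 values under the alternatives moved by over 1 SD. Their direction is largely fixed by that choice, so it is no sign of stability. The 247 higher genes became 410 at 1.5-fold and 43 at 4-fold, and lay between 172 and 359 when 1 library was left out. The 216 lower genes became 896 and 6 at those folds, 362 with a pseudocount of 0.1, 96 with median-of-ratios scaling, 120 with upper-quartile scaling, 32 with litter as a term and 91 in litter 1 alone. They lay between 100 without control 3 and 569 without mutant 1. By genotype limma passed 0 genes in every setting but 1, that without control 1, where Spp1 passed (adjusted p = 0.033), and 0 with voom. The genotype difference of Enam and the median of the enamel genes both turned from higher to -0.041 with the enamel class as a term, and that median lay between -0.63 without mutant 1 and 2.21 without control 3. The class was set by Amelx, so the turn to -0.041 is fixed in part by its construction and says nothing about genotype. The replicate number as a block also left 0 genes, with 524 unadjusted against 152 without the block. By litter the 458 genes became 948 with median-of-ratios and 802 with upper-quartile scaling, 126 with genotype and 2 with the enamel class as a term, 229 with voom, and between 7 and 939 when 1 library was left out. Of 118 named genes without overlap, 15 overlapped under at least 1 other scaling, all of them lower genes. The causes of these changes were not tested, and 3 libraries a class and 15916045 to 20609420 reads limit the precision.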

Other observations

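Further genes are given here as values. All but Cd163, listed above among the largest falls, were chosen after their values were seen. In this comparison 23.8% of all genes were lower and 5.09% higher without overlap. The genes named here therefore stand for themselves and not for a cell type or pathway. Among them are genes known from tissue macrophages. Cd163, the haemoglobin scavenger receptor gene, was measured at 30.6, 27.5 and 32.8 RPM in the enamel-poor libraries and 1.91, 15.4 and 11.1 RPM in the enamel-rich libraries. Mrc1, the mannose receptor gene, was measured at 98.4, 156 and 148 RPM against 28.0, 62.8 and 67.6 RPM and Lyve1, a hyaluronan receptor gene shared by lymphatic vessels and macrophages, at 21.2, 33.7 and 33.1 RPM against 5.93, 6.36 and 15.8 RPM. F13a1, Stab1, Ms4a7 and Siglec1 differed by -1.17 (SE 0.32), -1.13 (SE 0.29), -1.18 (SE 0.31) and -1.12 (SE 0.35) on the log2(RPM + 1) scale, all without overlap, although Siglec1 overlapped under each other scaling tried. Control 3 had the lowest value in each of these 7 genes.

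A further 4 genes, lower without overlap, are known from Notch signalling. Notch3, a receptor gene of vessel wall cells, was measured at 161, 174 and 167 RPM in the enamel-poor libraries and 33.2, 115 and 55.6 RPM in the enamel-rich libraries. The ligand genes Dll1 and Dll4 differed by -1.54 (SE 0.37) and -1.01 (SE 0.24), and the target gene Hey1 by -1.14 (SE 0.25). Control 3 or mutant 3 was the lowest library in each of these 4 genes, and mutant 1 lay nearest to the enamel-poor range.

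The 9 genes at least 2-fold lower in each enamel-rich library were Rasl11a, Ifitm1, Clec4a2, Rdh10, 2610305D13Rik and 4 predicted gene models (Gm7125, Gm6594, Gm10590 and Gm13212). Rdh10, a retinol dehydrogenase gene that acts in retinoic acid synthesis, was the most abundant of the 9, at 223, 258 and 235 RPM in the enamel-poor libraries and 91.9, 102 and 119 RPM in the enamel-rich libraries. Its difference of -1.20 (SE 0.13) had a small SE because the 3 libraries of each class lay close together.

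Among epithelial signalling genes, Wnt7a was measured at 32.0, 12 and 28.1 RPM in the enamel-poor libraries and 83.7, 64.8 and 76.9 RPM in the enamel-rich libraries, with a difference of 1.71 (SE 0.34). Wnt4 was measured at 41.5, 46.3 and 32.5 RPM against 226, 87.7 and 83.7 RPM and Bmp5 at 5.0, 5.98 and 3.69 RPM against 8.40, 25.7 and 11.8 RPM, with control 3 highest for the first and mutant 1 for the second. Sox21, a transcription factor gene, was measured at 4.44, 4.30 and 3.63 RPM against 45.4, 44.4 and 13.5 RPM, with a difference of 2.61 (SE 0.43). The desmosome genes Dsc3, Dsg2, Ppl and Evpl differed by 1.74 (SE 0.67), 1.32 (SE 0.41), 1.97 (SE 0.71) and 1.60 (SE 0.35). Control 2 was the lowest library for all 4, at 36.5 RPM for Dsc3 against 251 and 200.1 RPM in control 1 and mutant 2, and without it the differences were 0.88, 0.82, 1.07 and 1.24. Cftr, a chloride and bicarbonate channel gene of maturing ameloblasts, was measured at 1.61, 0.0699 and 0.998 RPM against 6.46, 15.5 and 2.18 RPM, with a difference of 2.04 (SE 0.60). Its value in control 2 also lay under the level of 3 reads.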
